A study of Ogataea haglerorum with 3 samples.

Results

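Close divergent pairs of the methylotrophic yeast Ogataea haglerorum are neighbouring genes transcribed away from each other, with gene models at most 300 bases apart. They were found from the deposited gene positions alone: the left gene lies on the minus strand, the right gene on the plus strand, and 0 to 300 bases lie between them. No measured level chose them. Of 5338 neighbouring pairs on 7 chromosomes, 1054 were members, and they held 2108 of the 5345 genes, each in 1 pair only. Another 423 divergent pairs lay more than 300 bases apart and are called far divergent. Among convergent pairs, which are transcribed towards each other, 1352 were close and 128 far by the same limit. Among pairs on the same strand 1852 were close and 526 far. The remaining 3 neighbouring pairs overlapped and entered no class.

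Polyadenylated RNA was sequenced from haploid cells of strain Phaff 81-453.3 in log-phase growth. The cultures were grown at 30 °C in YPD, a rich medium with glucose, and harvested at an OD600 between 0.8 and 1.2. The labels give 1 group of 3 libraries, numbered 1, 4 and 5, with no treatment and no second condition. The libraries held 34047362, 44734719 and 34526996 counts over genes. Whether the libraries stem from separate cultures is not stated, so their spread may be technical. The question addressed here is how alike the 2 genes of a close divergent pair were in level, and whether they rose and fell together between libraries.

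In divergent pairs the stretch of DNA between the genes lies upstream of both and can hold promoter sequence of both. In yeasts such a stretch usually holds an open region free of nucleosomes, from which transcription can start in both directions, and binding sites in it can serve either gene or both. Textbook cases in Saccharomyces cerevisiae are the paired histone genes and the GAL1 and GAL10 genes of galactose use. Convergent neighbours share only their 3′ side, so they lie close together without a common promoter region.

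The gaps of the 1054 pairs ran from 27 to 300 bases with a median of 112.5, and the middle of the distribution (25th to 75th percentile) spanned 73 to 181 bases. Gaps are between the edges of annotated gene models. Transcript ends were not measured, and 4664 of all gene lengths (87.3%) were multiples of 3, as coding sequences are. Both genes of 1050 pairs were found by locus tag in the RefSeq annotation of assembly ASM1920728v1. There 1049 of these pairs were also next to each other in gene order, and 1043 had the same gap length. That annotation gives a name other than the locus tag to 0 of its 5407 genes, so the genes below are identified by tag and position, and no function is attached to any of them. Chromosome coordinates are those of the authors' own annotation.

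The pairs at the edge of the 300-base limit did not look alike as a group. With a gap of 300 bases, KL911_000427 and KL911_000426 on chromosome 3 (212782 to 214503 and 214804 to 215970) had means of 70.1 and 84.5 TPM, and KL911_005234 and KL911_005235 on chromosome 4 had 35.7 and 126 TPM. With a gap of 299 bases, KL911_004655 and KL911_004654 on chromosome 6 had 106 and 3.76 TPM. Just outside the limit, with a gap of 302 bases, KL911_004094 and KL911_004095 on chromosome 3 had 3626 and 226 TPM. The next pairs, with gaps of 304 bases, were KL911_000013 and KL911_000012 on chromosome 3 with 62.7 and 44.6 TPM, and KL911_001992 and KL911_001991 on chromosome 6 with 339 and 23.0 TPM.

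Genes of close divergent pairs were ordinary in level and lower than genes of far divergent pairs. TPM, a library-scaled transcript level, corrects counts for gene length, so levels of different genes can be compared. The median member gene had 49.6 TPM, the median gene of a far divergent pair 65.7 TPM and the median of all genes 52.1 TPM. On the log2(TPM + 1) scale the median of the members was below that of far divergent genes by 0.37 in library 1, 0.41 in library 4 and 0.34 in library 5, a difference of -0.37 ± 0.03 (SD, n = 3 libraries). All 3 libraries showed the same direction, but an exact sign-flip test over 3 libraries cannot give a two-sided p below 0.25, which is the value it gave (permutation p = 0.25). In 2045 member genes (97.0%) every library had 10 counts or more, against 96.7% of all genes, and in 999 pairs both genes did.

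Within the limit, the most abundant transcripts were more frequent at the wider gaps. Genes over 1000 TPM made up 0.893% of the genes at divergent gaps of up to 50 bases and 0.437% at 51 to 100 bases. The share was 1.46% at 101 to 150, 3.57% at 151 to 200 and 4.34% at 201 to 300 bases. Beyond the limit it was 5.61% at 301 to 500 and 6.13% at 501 to 1000 bases, but 2.22% (2 genes) over 1000 bases. Other classes rose as well. In same-strand pairs the share was 0.853% at up to 50 bases and 6.65% at 201 to 300. In convergent pairs it was 1.44% at up to 50 bases, 7.69% at 101 to 150 and 4.00% at 201 to 300. In all, 41 of the 2108 member genes exceeded 1000 TPM, of 179 such genes in the genome. Within the limit the median level changed less, from 40.6 ± 1.1 TPM at gaps of up to 50 bases to 53.0 ± 0.91 TPM at 201 to 300 bases (SD, n = 3), with 62.7 ± 1.5 TPM at 101 to 150 bases. Beyond it the median was higher, 68.5 ± 0.10 TPM at 501 to 1000 bases and 70.6 ± 1.3 TPM over 1000 bases.

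The 2 genes of a close divergent pair differed by a median of 2.72-fold, less than partners of any other class. The partner difference is the median over pairs of the absolute difference in log2(TPM + 1), a scale that understates differences of genes near 1 TPM. It was 1.43 in library 1, 1.42 in library 4 and 1.47 in library 5, or 1.44 ± 0.03 (SD, n = 3). Far divergent partners differed by 1.88 ± 0.02, close convergent partners by 1.62 ± 0.02, far convergent partners by 1.79 ± 0.04 and close same-strand partners by 1.73 ± 0.00. Far same-strand partners differed most, by 2.04 ± 0.02. The close divergent value lay below that of each other class in all 3 libraries, with no overlap.

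Against far divergent pairs the contrast was -0.46, -0.44 and -0.41 in libraries 1, 4 and 5, a mean of -0.44 ± 0.03 (SD, n = 3). Against close convergent pairs it was -0.18 ± 0.01, against far convergent pairs -0.35 ± 0.02 and against close same-strand pairs -0.28 ± 0.03 (exact sign-flip permutation p = 0.25 for each, the smallest that 3 libraries allow). Part of this moved with the range of levels in each class. Among pairs with both partners between 10 and 1000 TPM, a limit chosen after the data were seen, the contrasts kept their sign and fell to -0.16 ± 0.03, -0.07 ± 0.03, -0.13 ± 0.04 and -0.16 ± 0.05 in the same order. The contrast with far convergent pairs also shrank to -0.09 ± 0.08 with a pseudocount of 10 TPM, to -0.13 ± 0.06 among genes of 5 TPM or more and to -0.12 ± 0.02 with a gap limit of 500 bases.

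The spread of levels within each class gives the scale for these values. A left and a right gene taken from different close divergent pairs differed by a median of 1.84 ± 0.01, and the partner difference minus this value was -0.40 ± 0.03 (SD, n = 3). In far divergent pairs genes of different pairs differed by 2.27 ± 0.02, and the same subtraction gave -0.39 ± 0.02. In close convergent pairs genes of different pairs differed by 1.81 ± 0.01, and it gave -0.19 ± 0.02. It gave -0.30 ± 0.01 in close same-strand pairs. In far same-strand pairs (-0.48 ± 0.01) and far convergent pairs (-0.62 ± 0.02) partners were closer on this scale than in close divergent pairs. Measured against their own class, close and far divergent partners thus differed from each other by less than the spread between libraries.

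Rank order placed the classes differently, with far convergent and far divergent above close divergent pairs. The Spearman correlation between partners, across pairs and with both orders of a pair entered, was 0.216, 0.225 and 0.210 in libraries 1, 4 and 5 for close divergent pairs, a mean of 0.217 ± 0.007 (SD, n = 3 libraries; 1054 pairs). It was highest for far convergent pairs, 0.253 ± 0.010, and 0.248 ± 0.002 for far divergent pairs. It was 0.208 ± 0.005 for far same-strand, 0.169 ± 0.004 for close same-strand and 0.143 ± 0.006 for close convergent pairs. Pairs are not replicates, and partners share their library and their position on the chromosome. Of the close divergent pairs 62 (5.88%) had a gene within 50 kb of a chromosome end, where levels are low, and without those pairs the correlation was 0.160 ± 0.008. Such pairs made up 10.2% of far divergent, 16.4% of far convergent and 10.8% of far same-strand pairs. They made up 6.51% of close convergent and 6.43% of close same-strand pairs. The order of the classes without them was not computed. Among close divergent pairs with both genes at 5 TPM or more the correlation was 0.132 ± 0.010.

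**Figure D1:**
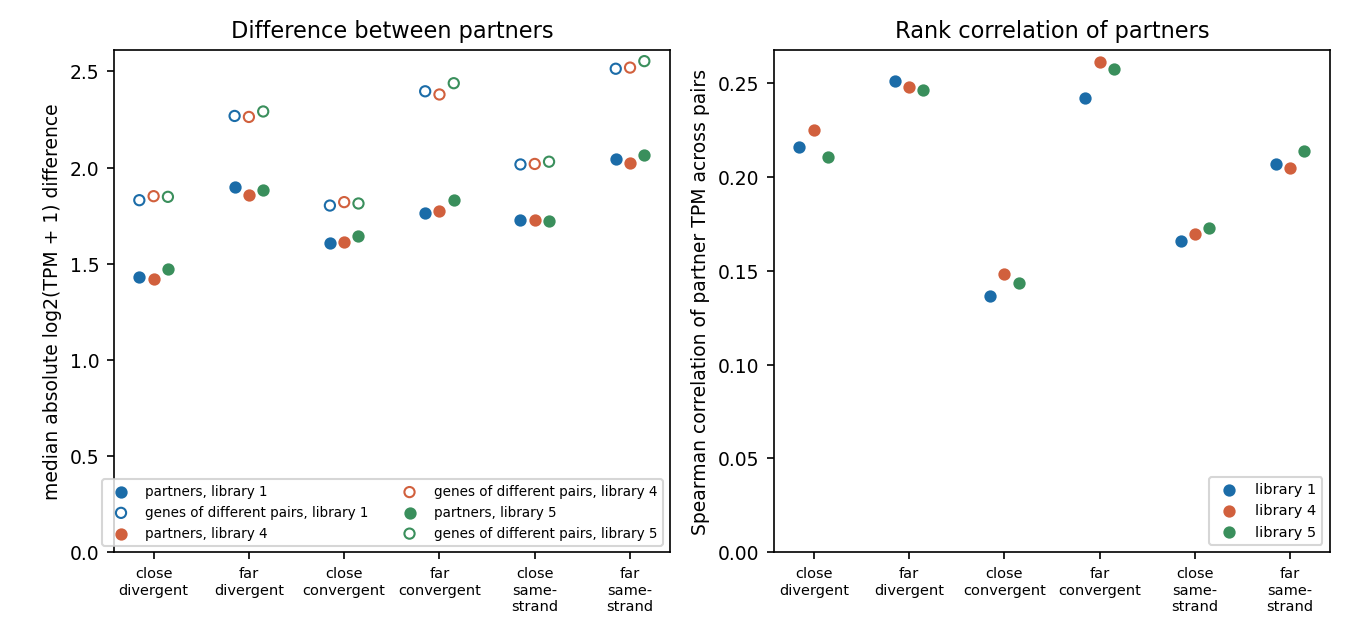
Left, median absolute difference in log2(TPM + 1) between partners (filled points) and between left and right genes of different pairs of the class (open points), for each library and class. Right, the Spearman correlation of partner TPM across pairs. Close divergent partners had the smallest difference, 1.44 ± 0.03, while their correlation of 0.217 lay below that of far divergent and far convergent pairs and above that of close convergent pairs.

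A member gene was nearer in level to its divergent partner than to the neighbour on its other side. Every one of the 2108 member genes had such an outer neighbour without overlap, at a median distance of 61 bases, and 1239 of these neighbours were convergent and 869 on the same strand. The median difference was 1.44 ± 0.03 from the partner and 1.68 ± 0.01 from the outer neighbour (SD, n = 3). Taken gene by gene, the difference from the partner minus that from the outer neighbour had a median of -0.15, -0.16 and -0.15 in libraries 1, 4 and 5 (exact sign-flip permutation p = 0.25, the smallest possible). In every library 1036 genes (49.1%) were nearer to the partner and 853 (40.5%) nearer to the outer neighbour. The preference was therefore modest.

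Partners lay closest in level at the shortest gaps. At gaps of up to 50 bases the 112 divergent pairs differed by a median of 1.16 ± 0.04, and the 343 pairs at 51 to 100 bases by 1.36 ± 0.02 (SD, n = 3). The differences at 101 to 150, 151 to 200 and 201 to 300 bases were similar, at 1.58 ± 0.02, 1.57 ± 0.03 and 1.55 ± 0.05. From 301 to 500 bases the difference was 1.89 ± 0.02. Convergent pairs also had a small difference at up to 50 bases, 1.45 ± 0.02 over 903 pairs. Their wider gaps showed no steady order, with 2.09 ± 0.03 over 276 pairs at 51 to 100 bases and 2.23 ± 0.10 at 101 to 150. The difference was 1.45 ± 0.13 over 45 convergent pairs at 151 to 200 bases and 2.21 ± 0.08 at 201 to 300. Same-strand partners differed by 1.62 ± 0.02 at up to 50 bases, 1.48 ± 0.01 at 51 to 100 and 2.14 ± 0.05 at 201 to 300. Smaller differences at short gaps were thus not particular to divergent pairs. Rank correlation did not follow the gap in this way: across divergent pairs it was 0.055 ± 0.019 at up to 50 bases and 0.309 ± 0.007 at 151 to 200 bases. At gaps of up to 50 bases few genes lay at the extremes, with 13 (5.80%) under 5 TPM and 2 over 1000 TPM, and the part of this in the small differences was not tested.

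**Figure D2:**
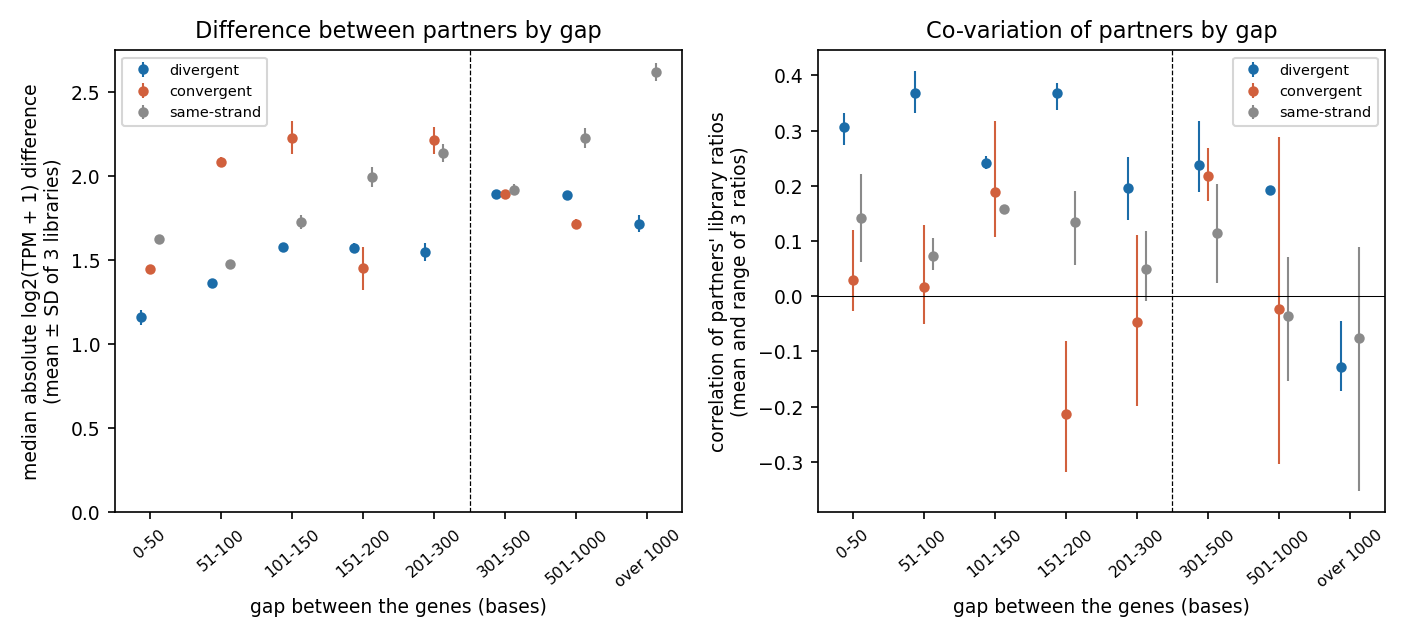
Left, median absolute log2(TPM + 1) difference between partners by gap length, as mean ± SD of 3 libraries. Right, the Spearman correlation of the partners' log2 ratios between libraries, as the mean and range of 3 library ratios. The dashed line marks 300 bases, and bins under 20 pairs are left out. Divergent partners differed least at the shortest gaps (1.16), and their co-variation lay between 0.197 and 0.369 in every bin up to 300 bases.

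Close divergent neighbours were still often far apart in level. limma's treat test, which asks whether the partners of a pair differ by more than 4-fold given the spread of that difference between libraries, was fitted over all 5335 neighbouring pairs without overlap. It called 343 close divergent pairs (32.5%) at a Benjamini-Hochberg adjusted p under 0.05, against 38.1% of all pairs. The share was 41.4% of far divergent, 36.7% of close convergent and 39.0% of close same-strand pairs. For a difference over 2-fold it called 596 members (56.5%), against 60.9% of all pairs. Partners lay within 2-fold of each other in every library in 336 members (31.9%), against 27.9% of all pairs, and over 16-fold apart in every library in 126 members (12.0%), against 14.4%. The left gene was higher in every library in 491 pairs and the right gene in 506. The shorter gene had the higher mean TPM in 549 pairs (52.1%).

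A high gene beside a low one was found at gaps down to the shortest. In 46 pairs (4.36%) one partner had 100 TPM or more and the other under 10 TPM in every library, against 4.99% of all neighbouring pairs. The share was 3.62% in close convergent, 5.44% in far divergent and 5.62% in close same-strand pairs. These limits alone set the partners more than 4-fold apart in every library, and all 46 were among those called so. The median ratio of their partners in mean TPM was 93.8. The high partner was on the left in 25 and on the right in 21. The gap had a median of 139.5 bases, and 14 of the 46 had a gap of at most 100 bases, as did 455 of the 1054 members. Median levels were 184 TPM for the high partners and 2.32 TPM for the low ones, of which 13 were under 1 TPM. In 9 pairs the low gene had under 10 counts in at least 1 library. Of the 46 pairs 2 lay within 50 kb of a chromosome end, as did 62 of the 1054 members (5.88%).

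The pair with the shortest gap belonged to this set. On chromosome 3, 27 bases separated KL911_000514 (74321 to 74884) from KL911_000513 (74912 to 76554). KL911_000514 had 0.922, 0.987 and 1.12 TPM in libraries 1, 4 and 5, from 17, 24 and 21 counts. KL911_000513 had 152, 136 and 142 TPM. The groups of values were far apart, with a log2(TPM + 1) difference of 6.16 ± 0.08 (SE; limma treat, adjusted p = 5.93e-07). The other pair with a gap of 27 bases was unlike it: KL911_003062 and KL911_003063 on chromosome 7 had means of 23.6 ± 2.3 and 40.9 ± 3.3 TPM (SD, n = 3). With a gap of 28 bases, KL911_004674 and KL911_004673 on chromosome 6 had 18.6 ± 1.1 and 40.3 ± 1.6 TPM.

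The most unequal pair joined one of the most abundant transcripts to a nearly silent gene. KL911_003016, on chromosome 7 at 60921 to 61376, had 6385, 6308 and 6950 TPM in libraries 1, 4 and 5. Its partner KL911_003017, at 61587 to 62024 and 210 bases away, had 0, 3 and 0 counts, which is 0, 0.159 and 0 TPM. Per base, the summed counts of the 2 genes stood in a ratio of 104060, with an exact 95% interval of 35607 to 504599 that covers counting error only. Next came KL911_004221 on chromosome 7 at 788002 to 788937, with 3719, 3551 and 3823 TPM. Its partner KL911_004222, at 786635 to 787786 and 215 bases away, had 7, 5 and 3 counts, a ratio per base of 30899 (exact 95% interval 18734 to 55207). In both pairs the values of the high and the low gene lay far apart in every library.

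At a shorter gap of 77 bases, KL911_005150 on chromosome 7 (573182 to 574516) had 781, 749 and 818 TPM. Its partner KL911_005149, a gene model of 219 bases at 572886 to 573104, had 2, 2 and 0 counts, a ratio per base of 4662 (exact 95% interval 1821 to 17111). KL911_000912 on chromosome 2 (531449 to 532063) had 2798, 2827 and 3148 TPM, and its partner KL911_000911 (530392 to 531265) had 3.99, 7.19 and 5.52 TPM. KL911_004941 on chromosome 4 (100638 to 101711) had 1142, 1191 and 1283 TPM, and its partner KL911_004942 (101853 to 102662) had 2.68, 2.18 and 1.81 TPM. The log2(TPM + 1) differences of these last 2 pairs were 8.83 ± 0.15 and 8.56 ± 0.12 (SE; limma treat, adjusted p = 7.22e-07 and 5.57e-07). A low gene with a near-identical copy elsewhere may be undercounted, since the counting command set no option for reads that map to several places.

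**Figure D3:**
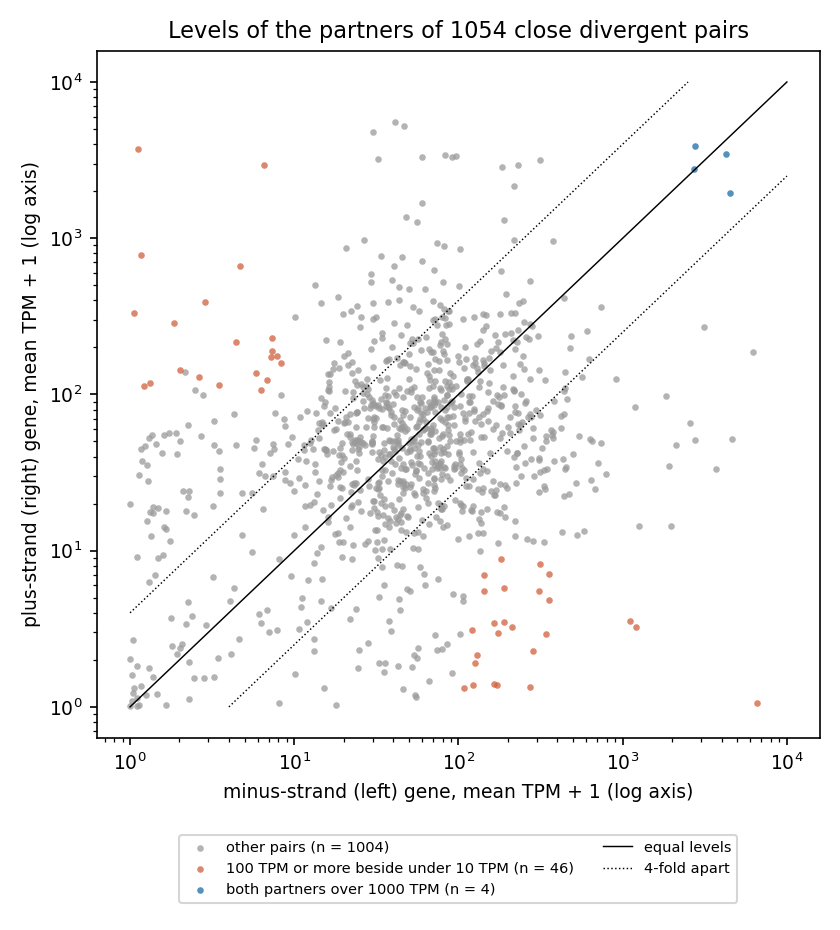
Mean TPM + 1 of the minus-strand (left) gene against that of the plus-strand (right) gene for the 1054 close divergent pairs, on log axes. Orange points are the 46 pairs with 100 TPM or more beside under 10 TPM in every library, and blue points the 4 pairs with both partners over 1000 TPM. Most pairs lie between the dotted lines that mark a 4-fold difference, and the orange pairs lie far outside them on both sides.

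Both partners were highly expressed in some pairs, and the share of such pairs in other classes was not computed. Single member genes over 1000 TPM numbered 41. Of the 1054 pairs 4 had both means over 1000 TPM, and 92 had both at 100 TPM or more. The highest was KL911_000285 and KL911_000284 on chromosome 3 (430878 to 431471 and 431670 to 432151), 198 bases apart. KL911_000285 had 4061, 4143 and 4508 TPM in libraries 1, 4 and 5, and KL911_000284 had 3277, 3419 and 3683 TPM. Both were lowest in library 1 and highest in library 5. KL911_004425 and KL911_004426 on chromosome 6 (1466193 to 1466486 and 1466729 to 1467193) had means of 2769 ± 186 and 3901 ± 181 TPM (SD, n = 3). KL911_002793 and KL911_002792 on chromosome 1 (737838 to 738356 and 738609 to 739511) had means of 4511 ± 247 and 1955 ± 234 TPM. In this last pair the partners moved differently, since KL911_002793 was highest in library 5 and KL911_002792 lowest there.

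The fourth of these pairs was the only one of the 1054 whose genes had equal length, 396 bases each. KL911_003453 and KL911_003454 on chromosome 5 (325031 to 325426 and 325698 to 326093) lay 271 bases apart. KL911_003453 had 2792, 2728 and 2680 TPM and KL911_003454 had 2751, 2736 and 2797 TPM. The ranges overlapped, and the log2 difference was -0.01 ± 0.07 (SE). It was also the fourth most alike of the pairs with both means at 10 TPM or more. The fifth pair by its lower partner, KL911_004490 and KL911_004491 on chromosome 1 (64693 to 65289 and 65569 to 66189), had 437 ± 3 and 415 ± 13 TPM. The levels thus fell sharply after the fourth pair.

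The most alike pairs were otherwise of middling level. KL911_005075 and KL911_005076 on chromosome 1 (338870 to 342007 and 342088 to 342982), 80 bases apart, had 88.8 ± 3.5 and 88.7 ± 3.7 TPM (SD, n = 3). KL911_001115 and KL911_001116 on chromosome 2 (840559 to 842654 and 842710 to 844386), 55 bases apart, had 87.4 ± 4.3 and 87.0 ± 3.0 TPM. KL911_003051 and KL911_003052 on chromosome 7 (101181 to 102005 and 102089 to 103045) also moved together. KL911_003051 had 49.2, 45.3 and 56.5 TPM and KL911_003052 had 48.5, 45.1 and 59.0 TPM in libraries 1, 4 and 5. KL911_004215 and KL911_004214, 30 bases apart on chromosome 7, had 52.6 ± 6.0 and 51.9 ± 2.9 TPM. In each of these pairs the partners' values overlapped over the 3 libraries.

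Pairs with both genes low were often near chromosome ends, and the share of such pairs in other classes was not computed. Both means were under 5 TPM in 36 pairs. Of these, 19 had a gene within 50 kb of an end, against 62 of all 1054 members (5.88%). The lowest was KL911_001520 and KL911_001521 on chromosome 5 (1206631 to 1207250 and 1207310 to 1208977), with no count in any library for the left gene and 0, 0 and 1 counts for the right. KL911_001535 and KL911_001536 on chromosome 5 (1226886 to 1227845 and 1227940 to 1228753) had 0, 3 and 0 counts and 6, 1 and 0 counts. KL911_005264 and KL911_005265 on chromosome 4 (1260033 to 1261283 and 1261474 to 1263057) had 8, 7 and 0 counts and 1, 0 and 0 counts. All 3 pairs lay within 50 kb of an end. The summed counts per base of the second pair stood in a ratio of 2.75 (exact 95% interval 0.628 to 16.5), so no difference between its partners was detectable at this depth. In the last pair KL911_005264 was the higher one, by a ratio of 19.0 with a wide interval of 2.92 to 800 (exact 95%, counting error only). Of all member genes 3 had no count in any library. Taken alone, a count of 0 in 1 library allows an expected count of up to about 3 there. With 0 in every library the limit per library is lower, but it is not 0.

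Partners of low member genes were often low, as in every class of neighbours. The 41 member genes of 1000 TPM or more had partners with a median of 64.8 TPM, 15 of them (36.6%) at 100 TPM or more. The 46 such genes in far divergent pairs had partners with a median of 135 TPM, 25 of them (54.3%) at 100 TPM or more. The 76 such genes in close convergent pairs had partners with a median of 62.9 TPM. At the other end, the 213 member genes under 5 TPM had partners with a median of 17.0 TPM, of which 88 (41.3%) were under 10 TPM. The same share was 39.1% in far divergent, 37.4% in close convergent and 42.0% in close same-strand pairs, and 47.7% and 50.9% in far convergent and far same-strand pairs. Genes of 5 to 50 TPM had partners with a median of 44.2 TPM, of which 13.4% were under 10 TPM. These counts see a pair from both sides and were not tested.

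Close divergent partners rose and fell together between libraries, while close convergent partners did so little or not at all. For each gene with a mean of at least 10 CPM (counts scaled to library size, here with TMM), the log2 ratio between 2 libraries was taken, and the Spearman correlation was computed between partners across the 809 member pairs with both genes above that mean. The Spearman correlation was 0.317 for library 4 over 1, 0.267 for 5 over 1 and 0.318 for 5 over 4. In 1091 close convergent pairs the same ratios gave 0.128, -0.006 and -0.035. In 324 far divergent pairs they gave 0.170, 0.166 and 0.246, and in 1432 close same-strand pairs 0.153, 0.091 and 0.084. The 80 far convergent pairs had 0.205, 0.104 and 0.087, above the close convergent pairs for each ratio. Close divergent pairs were highest for each of the 3 ratios. The ratios share libraries, so they are not independent, and these correlations across pairs are given without a test.

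The mean over the 3 ratios was 0.301 for close divergent, 0.194 for far divergent, 0.109 for close same-strand and 0.029 for close convergent pairs. The difference between close and far divergent pairs ran from 0.072 to 0.147, and that between close divergent and close convergent pairs from 0.189 to 0.352. The first of these moved with the settings. It was 0.062 ± 0.067 (SD over the 3 ratios) over genes with at least 1 count in each library, a spread larger than the mean. With a gap limit of 500 bases it was 0.160, and from libraries 1 and 4 alone 0.161. The size of the library ratios themselves was about the same in members and in all genes, with an SD of the log2 ratio of 0.192 and 0.177 for library 4 over 1 and of 0.251 and 0.247 for 5 over 4.

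The same genes co-varied less with their other neighbour. Over the 1481 member genes for which the gene, its partner and its outer neighbour were all above 10 CPM, the correlation with the partner was 0.308, 0.259 and 0.310 for the 3 ratios. With the outer neighbour it was 0.139, 0.053 and 0.039. Where the outer neighbour was convergent, at a median distance of 34 bases, the values were 0.135, 0.034 and 0.000 over 911 genes. The median distance to the outer neighbour, 61 bases over all members, was shorter than the median gap to the partner.

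**Figure D4:**
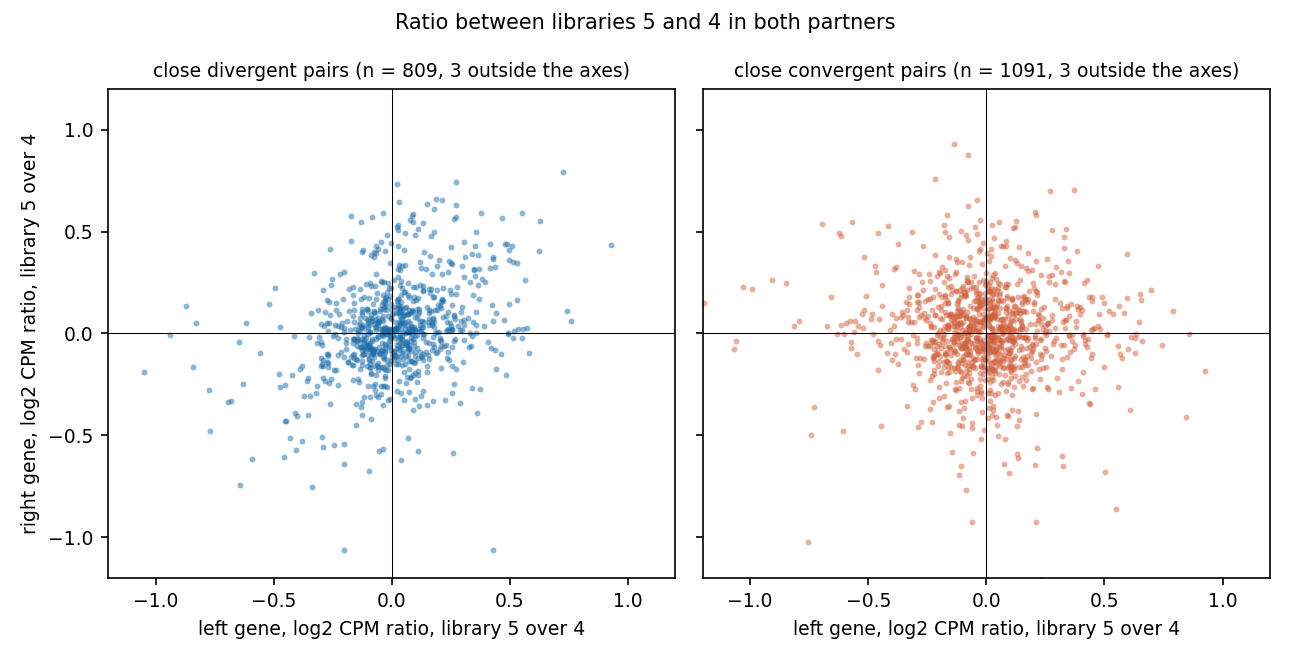
Log2 CPM ratio of library 5 over 4 of the left gene against that of the right gene, for 809 close divergent (left) and 1091 close convergent pairs (right) with both genes at a mean of 10 CPM or more. Each panel leaves 3 pairs outside its axes. The divergent cloud is tilted along the diagonal, with a correlation of 0.318, and the convergent cloud is not, with a correlation of -0.035.

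Co-variation of divergent partners was present at every gap length inside the limit. Its mean over the 3 ratios was 0.306 at gaps of up to 50 bases, 0.369 at 51 to 100, 0.241 at 101 to 150, 0.368 at 151 to 200 and 0.197 at 201 to 300 bases. Beyond the limit it was 0.237 at 301 to 500 bases and 0.192 at 501 to 1000 bases. Over 1000 bases, in 34 pairs, it was -0.128. Convergent pairs showed no order by gap. Their mean was 0.030 at up to 50 bases (737 pairs), 0.016 at 51 to 100 and 0.189 at 101 to 150 (53 pairs). It was -0.214 at 151 to 200 (30 pairs), -0.046 at 201 to 300 and 0.217 at 301 to 500 bases (54 pairs). Close divergent partners of unlike level co-varied too. In pairs called over 4-fold apart the correlation was 0.197, 0.339 and 0.426 for the 3 ratios over 181 pairs, and in pairs within 2-fold it was 0.418, 0.300 and 0.353 over 300 pairs. In the 328 pairs that were neither, its mean was lower, 0.233. By the level of the lower partner, the mean correlation was 0.270 under 30 TPM, 0.331 from 30 to 100 TPM and 0.218 at 100 TPM or more. In far divergent pairs these levels gave 0.163, 0.201 and 0.210, so at 100 TPM or more the classes were near each other. Far divergent means were 0.166 over 4-fold apart and 0.146 within 2-fold. In far divergent pairs that were neither, the mean was 0.248, above that of the members.

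Close divergent partners were often highest in the same library. Counts of 81.5% of the 4578 genes with at least 10 CPM differed between libraries by more than counting error (chi-square of the counts, Benjamini-Hochberg adjusted p under 0.05). Both genes did so in 533 close divergent pairs, and in 287 of these (53.8%) both were highest in the same library, against 42.0% over all neighbouring pairs of this kind. The share was 45.0% in far divergent, 38.0% in close same-strand and 36.8% in close convergent pairs, but 57.4% in the 54 far convergent pairs, above that of the members. The opposite order, with one gene highest where the other was lowest and the reverse, was seen in 9.19% of close divergent and 16.9% of close convergent pairs.

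Sharing was most frequent where both genes varied clearly. Highest and lowest CPM stood at least 1.3-fold apart in both genes, beyond counting error, in 34 of the 809 member pairs (4.20%), against 2.46% of all neighbouring pairs. In 28 of the 34 (82.4%) both genes were highest in the same library, against 55.4% over all such pairs. Of the 26 such close convergent pairs 8 shared the library, of the 24 close same-strand pairs 11 and of the 10 far divergent pairs 6. The limit of 1.3 was set after the data were seen, and no test was made. At a limit of 1.2 the share was lower, 69 of 105 close divergent pairs (65.7%), with 33 of 95 close convergent and 62 of 123 close same-strand pairs.

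The share of varying genes among members was near that of all genes. A ratio of at least 1.5 beyond counting error was found in 65 of the 1809 member genes tested (3.59%), against 3.80% of all genes tested. They lay in 61 pairs: in 57 pairs 1 gene was called and in 4 pairs both. Of the 65 called members 33 were highest in library 4 and 36 lowest in library 5. The shares were similar among all 174 called genes, with 88 highest in library 4 and 102 lowest in library 5. In 47 of the 57 pairs with 1 called gene the partner was above 10 CPM, and in 27 of these it was highest in the same library. Those partners had a median ratio of 1.20, against 1.13 over all tested genes, and ranged from 1.01 to 1.47. The count of called genes depended on single libraries: it was 15 without library 5 and 19 without library 4.

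In all 4 pairs with both genes called, the 2 genes were highest in the same library. Both genes varied in 0.122% of all neighbouring pairs tested, or 5 pairs, of which these were 4. On chromosome 1, KL911_002718 (876801 to 878036) had 8.44, 16.9 and 8.92 TPM in libraries 1, 4 and 5, and its partner KL911_002717 (878309 to 879982), 272 bases away, had 3.40, 46.8 and 5.98 TPM. Both were high in library 4 only, with CPM ratios of 2.04 and 14.0. The order of the partners changed with it: the left gene was the higher one in libraries 1 and 5 and the lower one in library 4. Without library 4, 0 pairs had both genes called, and without library 5 there was 1.

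The other 3 pairs moved in parallel by smaller factors. On chromosome 5, KL911_001238 (753828 to 754844) had 12.1, 9.42 and 15.7 TPM and KL911_001239 (755009 to 756865) had 32.4, 22.0 and 38.4 TPM, so both were lowest in library 4 and highest in library 5. On chromosome 4, KL911_001589 (268551 to 269840) had 88.9, 99.7 and 64.3 TPM and KL911_001590 (269995 to 271032) had 47.1, 56.0 and 33.7 TPM. On chromosome 5, KL911_005279 (90036 to 92084) had 70.4, 78.9 and 52.7 TPM and KL911_005278 (92171 to 92578) had 37.4, 49.1 and 32.2 TPM. The last 2 pairs were highest in library 4 and lowest in library 5. CPM ratios in these 3 pairs lay between 1.51 and 1.73.

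In the other pairs named for a strongly varying member the partner was not called, so it was the steadier gene by selection. KL911_004555 on chromosome 1 (162043 to 164127) had 8.49, 23.1 and 7.60 TPM, a CPM ratio of 3.06, while its partner KL911_004556 (164279 to 164734) had 71.8, 62.7 and 58.3 TPM and was highest in another library. KL911_004013 on chromosome 3 (1143464 to 1144434) fell from 116 TPM in library 1 to 58.6 and 38.1 TPM in libraries 4 and 5, and its partner KL911_004014 (1144675 to 1146567) had 101, 88.1 and 74.5 TPM in the same order. KL911_003033 on chromosome 7 (81054 to 83282) had 26.9, 30.8 and 12.9 TPM and its partner KL911_003034 (83448 to 84098) 21.4, 20.3 and 17.0 TPM. Both genes of that pair were lowest in library 5. KL911_002339 on chromosome 2 (919637 to 920359) had 13.3, 20.6 and 31.7 TPM, and its partner KL911_002338 (916074 to 919352) 171, 149 and 170 TPM.

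**Figure D5:**
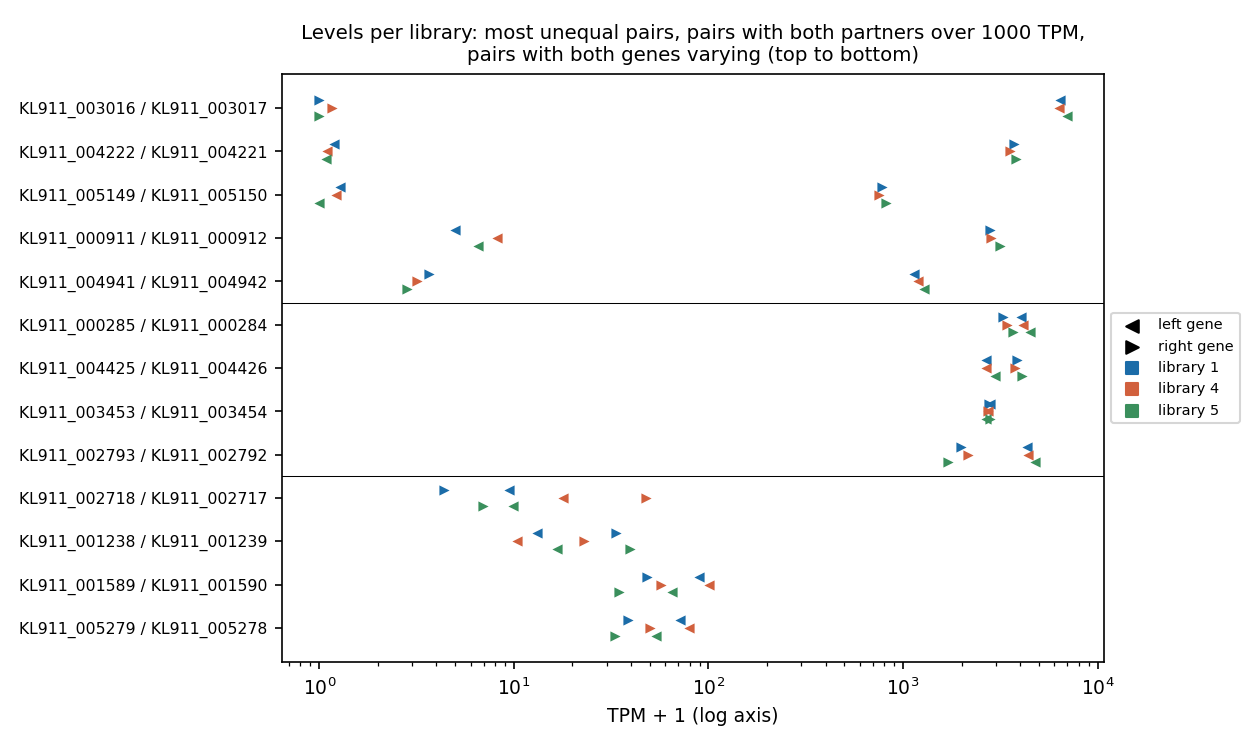
TPM + 1 per library on a log axis for both genes of 13 close divergent pairs. From the top, the 5 most unequal pairs keep their gap in every library, the 4 pairs with both partners over 1000 TPM lie within about 2.31-fold of each other in mean TPM, and the 4 pairs with both genes varying shift in the same direction between libraries.

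Close divergent partners co-varied on all 7 chromosomes, and the measured likeness of their levels varied from chromosome to chromosome. The SDs given here are over libraries that measured the same pairs, so they leave out the spread between pairs. Whether chromosomes differed beyond that spread was not tested. Other classes were not split by chromosome. The chromosomes held between 103 pairs (chromosome 1) and 184 pairs (chromosome 6). The partner difference ran from 1.31 ± 0.05 on chromosome 4 to 1.61 ± 0.02 on chromosome 1 (SD, n = 3), and the correlation of partner levels from 0.085 ± 0.007 on chromosome 1 to 0.300 ± 0.002 on chromosome 7. Co-variation was positive for each ratio on every chromosome, with means over the 3 ratios from 0.222 on chromosome 7 to 0.343 on chromosome 4. Pairs called over 4-fold apart made up between 28.4% of members on chromosome 5 and 37.0% on chromosome 3.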

How the data were processed

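The authors' counts per gene come from featureCounts 2.0.1 run by strand (setting 1) on an annotation of their own, per the file headers. HISAT2 2.2.1, SAMtools, deepTools and HTSeq are named without a role, per the submitters' processing notes. The genome build is not given in the sources used here. The deposited TPM values are the authors' own and equalled TPM recomputed from counts and lengths within 1% for every gene with a count. Counts were equal in all deposited tables, and 0 per-sample columns were left unused.

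Genes were sorted by chromosome and start, and neighbouring pairs classed by strand and gap. Partner differences used log2(TPM + 1) per library, compared over libraries by an exact sign-flip permutation test. limma 3.58.1 (treat, 4-fold threshold, Benjamini-Hochberg adjustment) was fitted to left-minus-right differences of all pairs without a filter. Co-variation used CPM scaled by TMM (edgeR 4.0.16, R 4.3.3). Varying genes were called by chi-square of counts against Poisson sampling with at least 10 CPM, adjusted p under 0.05 and a ratio of at least 1.5. This test covers counting error only, and PCR reads are not independent molecules. Libraries held 34047362 to 44734719 counts. Scripts ran in Python 3.11.15 with pandas 2.3.3, scipy 1.17.1, numpy 2.4.6 and, for plots, matplotlib 3.10.9. The statistics were tested on simulated data, and DESeq2 1.42.0 gave alternative size factors.

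The members, classes and thresholds were chosen with earlier results of these data known. Named pairs were taken by rule: the 5 with the highest lower partner, the 5 most unequal among those called, the 5 most alike at 10 TPM or more, the 3 lowest, the 5 with the most varying gene, those with both genes varying, and the 3 with the smallest and largest gaps inside and the smallest outside the limit. Gene lists and sequence features planned for description were not used here, since no names or genome were at hand.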

Additional observations from a re-analysis of the deposited data

How the results depend on the processing

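The likeness contrasts, the comparison with outer neighbours and the level of members kept their sign under all alternatives, but 3 libraries cannot pass the sign-flip test, so that test shows nothing of stability. The Spearman correlation of partner levels was 0.132 at 5 TPM or more, 0.160 away from chromosome ends, 0.206 with a gap limit of 200 bases and 0.105 at 10 to 1000 TPM, a limit chosen after seeing the data. Pairs called over 4-fold numbered 221 at 5 TPM or more (25.2%, against 31.9% of all pairs), 157 at 10 to 1000 TPM (20%, against 24.2%) and 596 at the 2-fold threshold. High-low pairs numbered 12 at 5 TPM or more, 15 at limits of 200 and 5 TPM and 144 at 50 and 20 TPM. With at least 1 count in each library as the only minimum, co-variation was 0.234. Its difference from far divergent pairs was then 0.062 ± 0.067 (SD over 3 ratios), and 170 genes and 14 pairs with both genes varied. With a mean CPM of at least 50, 26 genes and 0 pairs did, and at a ratio of 2, 9 genes and 1 pair. A gap limit of 500 bases gave a difference of 0.160 from far divergent pairs. Leaving out 1 library, co-variation ran from 0.271 to 0.327, its difference from far divergent pairs from 0.085 to 0.161 and from close convergent pairs from 0.202 to 0.353, varying members from 15 to 54 and pairs with both varying from 0 to 4. The 10 named pairs called over 4-fold kept their call in all 50 settings tried, and the 12 named varying genes in 66 of 88. Median-of-ratios scaling and library totals moved no count of calls by over 1.5 times. Where these results moved, the cause was not tested. No paired analysis was possible because all 3 libraries belong to a single group.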
